A study of Homo sapiens with 4 samples.

Results

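The proteasome is the protease complex that degrades ubiquitin-tagged proteins, and its genes were followed here by ribosome footprints in human melanocytes treated with an siRNA against the antisense RNA CDH3-AS1 or with a control siRNA. Members were the gene names that begin with PSM, a letter from A to G and a number, leaving out PSMB8 and PSMB9. Of 14355 gene names in the tables, 42 matched. PSMC3IP and PSME3IP1 match by name alone, since they encode a recombination factor and a binding partner of an activator, and are given apart. The remaining 40 comprise 14 core subunits (7 PSMA and 7 PSMB), 19 PSMC and PSMD genes of the regulatory cap, 2 activators (PSME), 4 assembly chaperones (PSMG) and the inhibitor PSMF1. PSMB3, PSMC4, PSME1 and PSME2 were not analysed here.

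The cells were Hermes 4B, an immortalised wild-type line of skin melanocytes. Libraries of cells given CDH3-AS1 siRNA (replicates 1 and 2) were set against libraries of cells given control siRNA (replicates 1 and 2), and replicate 1 of each was made in batch 1 and replicate 2 in batch 2. All cells received siRNA at 25 to 50 nM in medium with serum, the phorbol ester TPA, endothelin-1, cholera toxin and stem cell factor, and cycloheximide at 100 µg/mL held the ribosomes in place before RNase I digestion. The labels do not state separate cultures, so p-values cover only the spread of these 4 libraries, which may be technical. CDH3-AS1 reads were not analysed here, and the knockdown remains unchecked. CDH3, the gene on the opposite strand that encodes P-cadherin, had 179 and 192 CPM with CDH3-AS1 siRNA and 293 and 322 CPM with control siRNA (adjusted p = 1.00 by edgeR, and 0.168 with the batch as a block). CPM here are coding-sequence reads scaled to the coding-sequence total of the library.

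The core of the proteasome is a barrel of stacked rings. The outer rings are built of alpha subunits (PSMA), which gate the entrance, and the inner rings of beta subunits (PSMB), of which PSMB5, PSMB6 and PSMB7 carry the proteolytic sites. The cap recognises ubiquitin chains, and its ring of ATPases (PSMC) unfolds the substrate and feeds it into the barrel. In melanocytes the proteasome degrades, among other proteins, tyrosinase and the transcription factor MITF.

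Total reads were 6759850 and 2858835 in the CDH3-AS1 siRNA libraries and 2034854 and 5994485 in the control libraries. The listed melanocyte markers, 8 of 8, were read in every library. Their summed level was 21519 and 31652 CPM with CDH3-AS1 siRNA and 23236 and 40144 CPM with control siRNA, higher in batch 2 with each siRNA. Of 5 keratinocyte markers 4 were in the tables, with 8.82 and 36.0 CPM with CDH3-AS1 siRNA and 11.4 and 30.4 CPM with control siRNA. Control siRNA replicate 1 also held reads of muscle, fibroblast and blood and immune genes. Of 12 skeletal muscle markers 9 were in the tables, and their summed level was 8.82 and 3.83 CPM with CDH3-AS1 siRNA, against 1969 CPM in control replicate 1 and 4.98 CPM in control replicate 2. All 9 had reads in control replicate 1, while CKM, MYH1, MYL1, TNNC2 and MB were at 0 in the other libraries. Of 6 fibroblast markers 5 were in the tables, with 4.88 and 1.92 CPM with CDH3-AS1 siRNA and 492 and 0.533 CPM with control siRNA. Only 3 of these 5 had reads in control replicate 1, with DCN and PDGFRA at 0, while all 5 had reads in CDH3-AS1 siRNA replicate 1. Of 5 blood and immune markers 2 were in the tables, with 2.52 and 0 CPM with CDH3-AS1 siRNA and 41.8 and 0 CPM with control siRNA. The part of these reads in the values below was not tested.

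Proteasome genes took less than 1% of the coding-sequence footprints in every library. The 40 genes held 0.667% (95% Clopper-Pearson interval 0.661 to 0.674) and 0.611% (0.601 to 0.620) of coding-sequence reads with CDH3-AS1 siRNA, against 0.735% (0.723 to 0.748) and 0.678% (0.672 to 0.685) with control siRNA. The intervals cover counting error only, and in bulk samples fewer cells of a type and less RNA per cell cannot be told apart. The share was lower with CDH3-AS1 siRNA than with control siRNA in each batch, and lower in batch 2 than in batch 1 with each siRNA. Core subunits alone took 0.305% and 0.259% with CDH3-AS1 siRNA and 0.370% and 0.300% with control siRNA, while the cap took 0.312% and 0.302%, against 0.314% and 0.322%.

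No proteasome gene passed the test between the siRNAs. In edgeR's quasi-likelihood test with Benjamini-Hochberg adjustment, 0 of 38 tested members were called at an adjusted p under 0.05, where 0% of all 10469 tested genes were called (0 genes, with 224 at an unadjusted p under 0.05). None of the 38 had an unadjusted p under 0.05, and the lowest was 0.224 (PSME4). With the batch as a replicate block 1.62% of all genes were called and again 0 members, with 1 member, PSMA7, at an unadjusted p under 0.05 (adjusted p = 0.416). DESeq2 and limma on log2(RPKM + 1) also called 0 members, and their calls over all genes were not counted. The 95% interval of the log2 fold change lay between -1 and 1 for 12 of the 38 genes, and for the others a change of that size was not resolved at this number of libraries.

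The median log2 fold change of the 38 genes was -0.15, with -0.08 in batch 1 and -0.13 in batch 2, beside -0.03, 0.01 and -0.03 over all tested genes. In both batches 6 members were higher with CDH3-AS1 siRNA, where 26.5% of all genes were, and 14 were lower, where 27.8% were. The other 18 went in opposite directions in the batches. By group the median was -0.18 for the core, 0.03 for the cap, -0.29 for the activators and -0.21 for the assembly chaperones. The core's median was -0.21 in batch 1 and 0.10 in batch 2, and that of the chaperones 0.34 and -0.48, so for these groups the sign turned between the batches. The cap's median was -0.03 in batch 1 and -0.16 in batch 2, both of the opposite sign to that of the fit. Leaving out 1 library at a time gave medians between -0.13 and -0.05 for all 38 genes. The core's was 0.23 without control replicate 1, -0.44 without control replicate 2 and -0.35 without CDH3-AS1 siRNA replicate 1. The cap's was -0.11 without control replicate 1 and -0.07 without CDH3-AS1 siRNA replicate 2, and that of the chaperones 0.28 without control replicate 2.

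**Figure D1:**
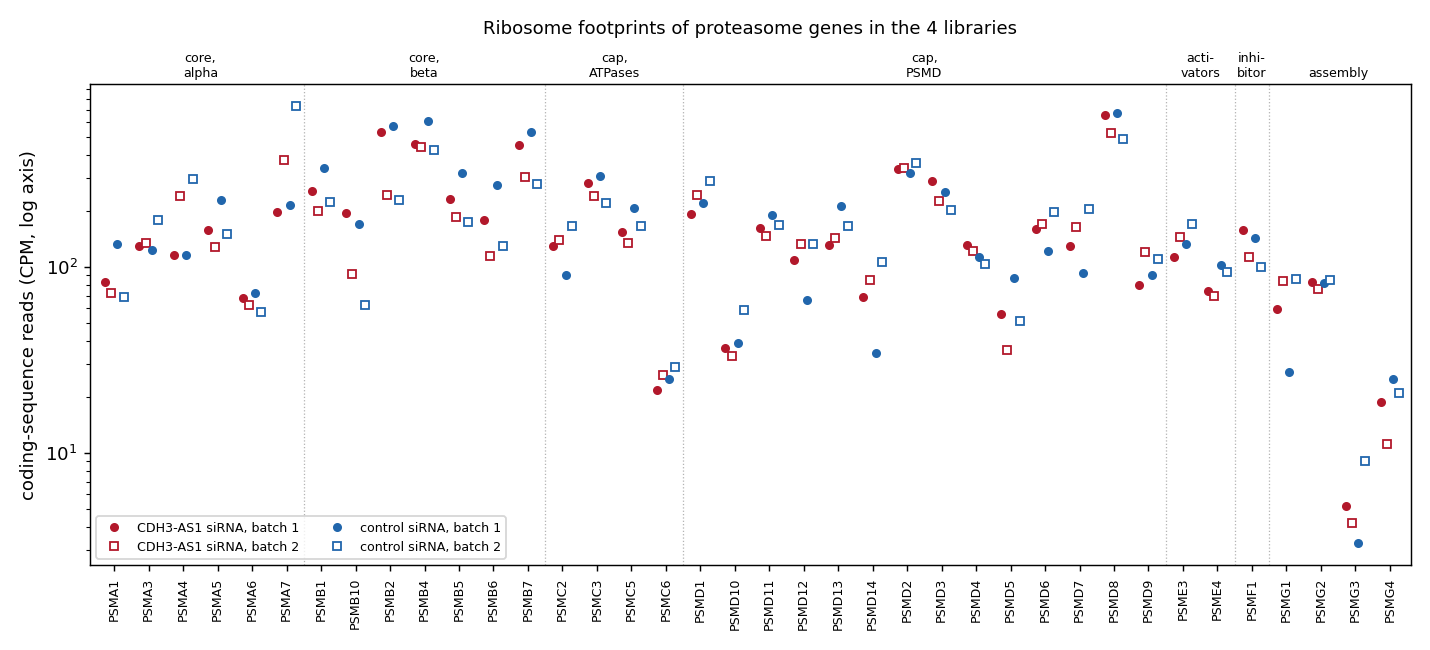
Coding-sequence reads (CPM, log axis) of the 38 proteasome genes with reads, by group, in the CDH3-AS1 siRNA libraries (red) and the control siRNA libraries (blue), with filled circles for batch 1 and open squares for batch 2. PSMD8, PSMB2 and PSMB4 are among the highest and PSMG3, under 10 CPM in every library, is the lowest.

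Among the alpha subunits, PSMA7 varied most between libraries. It had 197 and 374 CPM with CDH3-AS1 siRNA, against 215 and 730 CPM with control siRNA. Both batch 2 libraries stood above both batch 1 libraries, and the siRNA groups overlapped. The log2 fold change was -0.69 (SE 0.62), with -0.10 in batch 1 and -0.92 in batch 2. PSMA5 had 158 and 127 CPM, against 229 and 149 CPM in the controls, below its control in each batch (log2 fold change -0.36, SE 0.35). PSMA6 had 68.0 and 62.5 CPM with CDH3-AS1 siRNA and 72.2 and 57.0 CPM with control siRNA, the highest fold change of the alpha subunits at 0.06. PSMA3 had 129 and 134 CPM, against 123 and 179 CPM, a log2 fold change of -0.16. The median of the 6 tested alpha subunits was -0.25.

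The seventh, PSMA2, had 0 coding-sequence reads in every library, as had the ATPase PSMC1. A count of 0 allows up to 3 reads, or 0.473 and 1.15 CPM with CDH3-AS1 siRNA and 1.63 and 0.533 CPM with control siRNA. PSMA2 had 6 and 3 reads in its 3′ UTR with CDH3-AS1 siRNA and 0 and 5 with control siRNA. RefSeq lists 3 pseudogenes by name for PSMA2 and 13 for PSMC1. It also lists 4 for PSMA6 and 4 for PSMD7, which had 1049 and 2570 coding-sequence reads over the 4 libraries. How reads that fit several places were treated is not given in the sources used here, so the levels of these genes are uncertain.

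None of the catalytic beta subunits kept both libraries on one side of both controls. PSMB5, which carries the chymotrypsin-like site, had 232 and 185 CPM with CDH3-AS1 siRNA, against 318 and 174 CPM with control siRNA (log2 fold change -0.19, SE 0.39). PSMB6, the caspase-like subunit, had 178 and 114 CPM, against 274 and 130 CPM in the controls, and was the lowest of the beta subunits at -0.41 (SE 0.45). PSMB7, the trypsin-like subunit, had 450 and 303 CPM with CDH3-AS1 siRNA and 532 and 280 CPM with control siRNA, a log2 fold change of -0.07. For PSMB5 and PSMB7 the sign turned between the batches (-0.42 and 0.14 for PSMB5, -0.21 and 0.16 for PSMB7). PSMB1, a subunit without a proteolytic site, had 256 and 199 CPM, against 340 and 224 CPM (-0.27, SE 0.36). PSMB2, also without one, had 531 and 244 CPM, against 570 and 228 CPM, a log2 fold change of 0.00 with a 95% interval of -1.31 to 1.31. The 7 beta subunits had a median of -0.16, with -0.38 in batch 1 and 0.14 in batch 2.

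PSMB10 replaces PSMB7 in the immunoproteasome, the form of the core that interferon induces, and was the only beta subunit higher with CDH3-AS1 siRNA in both batches. It had 194 and 91.6 CPM with CDH3-AS1 siRNA and 170 and 62.0 CPM with control siRNA (log2 fold change 0.35, SE 0.56, 0.22 in batch 1 and 0.61 in batch 2). The groups overlapped, since control replicate 1 stood above CDH3-AS1 siRNA replicate 2. Of the reads of PSMB10 and PSMB7 together, PSMB10 took 30.1% (95% interval 28.7 to 31.5) and 23.2% (20.7 to 25.9) with CDH3-AS1 siRNA, against 24.2% (21.9 to 26.7) and 18.1% (16.4 to 19.9) with control siRNA. PSMB10 reads are summed over 2 transcripts, of which the most read holds 69.4%, while PSMB7 has 1. The share on the most read transcript alone was not taken. The log2 ratio of PSMB10 to PSMB7 was 0.43 above the control in batch 1 and 0.45 above it in batch 2. With 2 libraries a group an exact permutation test of this ratio cannot give a two-sided p below 0.333, and none was taken. Of the proteasome genes, PSMB10 (chr16:67934506-67936850, GRCh38.p14) lies nearest to CDH3, 0.708 megabases away.

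**Figure D2:**
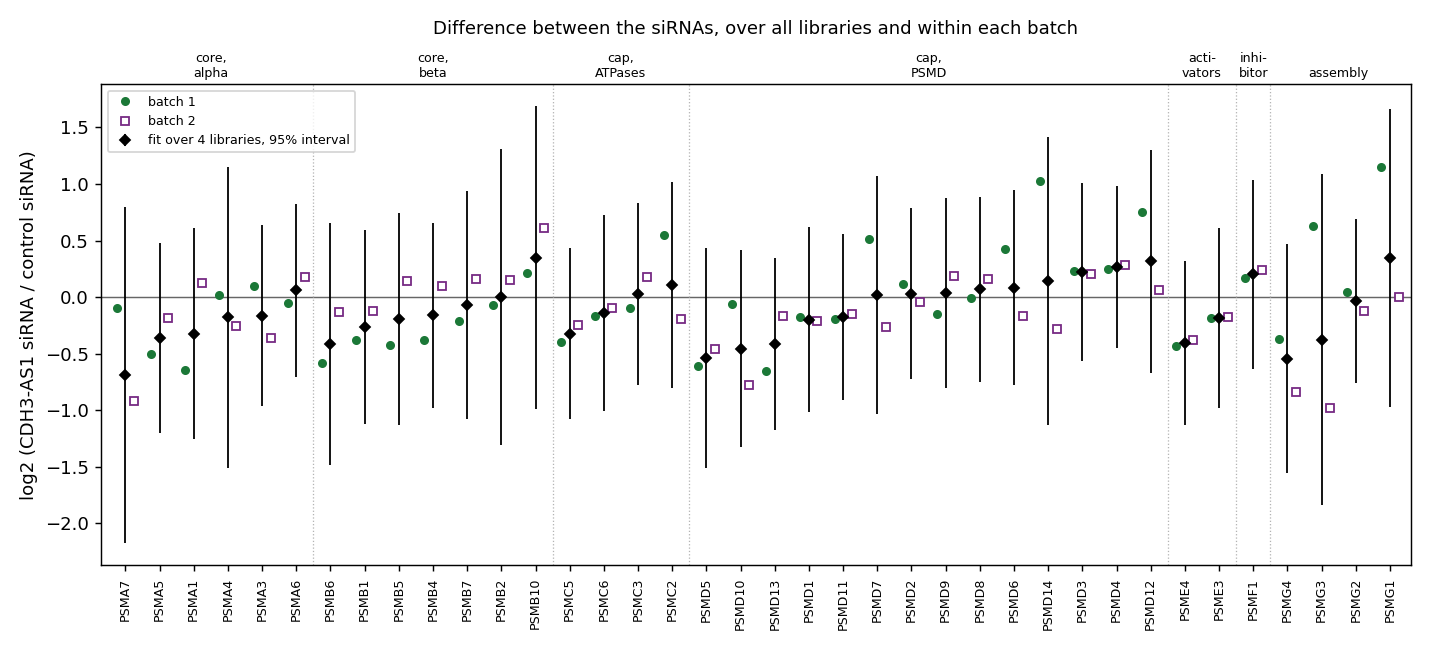
Log2 fold change of CDH3-AS1 siRNA over control siRNA for the 38 tested genes, by group and in order of size. Black diamonds with bars are edgeR's estimates with 95% intervals, green circles the difference within batch 1 and open purple squares that within batch 2. All intervals cross 0, and 18 genes have their batches on opposite sides of it.

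None of the 4 tested ATPases of the cap was called, and the 95% interval lay between -1 and 1 for 1 of them. PSMC5 had 154 and 134 CPM with CDH3-AS1 siRNA, against 207 and 165 CPM with control siRNA, so both libraries lay below both controls (log2 fold change -0.33, SE 0.32). PSMC2 had 129 and 139 CPM, against 90.6 and 165 CPM, with 0.55 in batch 1 and -0.19 in batch 2. PSMC3 had 280 and 240 CPM with CDH3-AS1 siRNA and 307 and 220 CPM with control siRNA, a log2 fold change of 0.03. PSMC6 was the least read of them, with 21.7 and 26.1 CPM against 25.0 and 29.0 CPM (-0.14). The median of the 4 was -0.06.

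Of the genes counted with the cap, PSMD5, PSMD9 and PSMD10, encode chaperones that help build the ATPase ring and leave the finished particle. PSMD5 had 55.4 and 35.6 CPM with CDH3-AS1 siRNA, against 86.8 and 51.0 CPM with control siRNA, below its control in each batch (log2 fold change -0.54, SE 0.41). PSMD10 had 36.5 and 33.0 CPM, against 39.1 and 58.8 CPM, with both libraries below both controls (-0.46, SE 0.36). PSMD9 had a log2 fold change of 0.04. PSMD4, a ubiquitin receptor of the cap, had 130 and 122 CPM with CDH3-AS1 siRNA, against 112 and 103 CPM with control siRNA. It was the only proteasome gene with both CDH3-AS1 siRNA libraries above both controls, an order that 13.3% of all genes had (log2 fold change 0.27, SE 0.30). Both libraries lay below both controls for 6 genes, PSMC5, PSMD10, PSMD11, PSMD13, PSME4 and PSMG4, an order that 14.1% of all genes had. PSMD12, a scaffold subunit of the cap, had 109 and 133 CPM, against 66.2 and 133 CPM, the highest fold change of the cap at 0.32 (SE 0.41), and the difference lay in batch 1 (0.75, against 0.06 in batch 2). The median of the 14 PSMD genes was 0.03.

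The activators are caps that open the barrel without ubiquitin. PSME4, which encodes PA200, had 74.0 and 69.4 CPM with CDH3-AS1 siRNA, against 103 and 93.5 CPM with control siRNA. Both libraries lay below both controls, by -0.43 in batch 1 and -0.38 in batch 2 on the log2 scale (fit -0.41, SE 0.30). PSME3, the nuclear activator PA28 gamma, had 113 and 144 CPM, against 132 and 169 CPM, a log2 fold change of -0.18 in each batch. PSMF1, an inhibitor of the core, had 157 and 113 CPM with CDH3-AS1 siRNA and 143 and 99.7 CPM with control siRNA, higher in each batch (0.20, SE 0.35).

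The PSMG chaperones assemble the alpha ring in pairs, PSMG1 with PSMG2 and PSMG3 with PSMG4. PSMG1 had 59.2 and 83.5 CPM with CDH3-AS1 siRNA, against 27.1 and 86.4 CPM with control siRNA, so control replicate 1 stood apart from the other libraries (log2 difference 1.15 in batch 1 and 0.00 in batch 2). Its partner PSMG2 had 82.9 and 75.5 CPM, against 82.0 and 85.1 CPM (log2 fold change -0.04, SE 0.30). PSMG3 had 33 and 11 coding-sequence reads with CDH3-AS1 siRNA and 6 and 51 with control siRNA, or 5.20 and 4.21 CPM against 3.26 and 9.06 CPM. PSMG4 had 18.7 and 11.1 CPM, against 25.0 and 21.0 CPM, both below both controls (-0.55, SE 0.43). PSMG3 and PSMG4 differed from the control by 0.63 and -0.37 on the log2 scale in batch 1, and by -0.98 and -0.84 in batch 2.

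Between the batches, some proteasome genes, most of them core subunits, differed by the same blocked fit that called none between the siRNAs. This comparison was added after the data had been seen and uses the fit's batch term. Batch 2 differed from batch 1 for 9 of 38 members at an adjusted p under 0.05, where 15.8% of all genes were called. They were 6 of 13 core, 2 of 18 cap, 0 of 2 activator and 1 of 4 assembly genes. The genes higher in batch 2 were PSMA7 (log2 fold change 1.37, SE 0.24), PSMA4 (1.22, SE 0.25), PSMG1 (1.05, SE 0.30), PSMD14 (0.95, SE 0.29) and PSMD7 (0.75, SE 0.26). Those lower in batch 2 were PSMB10 (-1.24, SE 0.26), PSMB2 (-1.19, SE 0.24), PSMB6 (-0.83, SE 0.26) and PSMB7 (-0.72, SE 0.24). PSMD14 is the deubiquitinase of the cap and PSMD7 its partner, and these genes are named here because of their values. PSMA4, PSMA7, PSMB2 and PSMB10 were called in all 8 fits that used the 4 libraries, and the count was 4 with no siRNA term and 5 with DESeq2. Calls over all genes in these alternative fits were not counted, so the counts have no background. Calls also changed with the library left out, where a batch holds a single library, and only sizes are given for those fits. The differences of PSMG1, PSMD14 and PSMD7 were 0.50, 0.46 and 0.48 without control replicate 1, the library with muscle reads, and those of PSMG1 and PSMD14 were 1.67 and 1.52 without CDH3-AS1 siRNA replicate 1. PSMA7 was at 0.91 without control replicate 2.

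All 7 beta subunits were lower in batch 2 with both siRNAs, where 34.1% of all genes were. With CDH3-AS1 siRNA their log2 differences ran between -1.08 and -0.02, and with control siRNA between -1.43 and -0.50. PSMB2 had 244 and 228 CPM in batch 2 (CDH3-AS1 siRNA and control siRNA), against 531 and 570 CPM in batch 1. PSMB10 had 91.6 and 62.0 CPM in batch 2, against 194 and 170 CPM in batch 1. For both genes the batches did not overlap. PSMA4, an alpha subunit, had 240 and 296 CPM in batch 2, against 115 and 116 CPM in batch 1, so subunits of the same barrel stood on opposite sides. Over the 38 genes 14 were higher in batch 2 with both siRNAs, where 36% of all genes were, and 20 were lower. What the batches were beyond their number is not given in the labels.

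**Figure D3:**
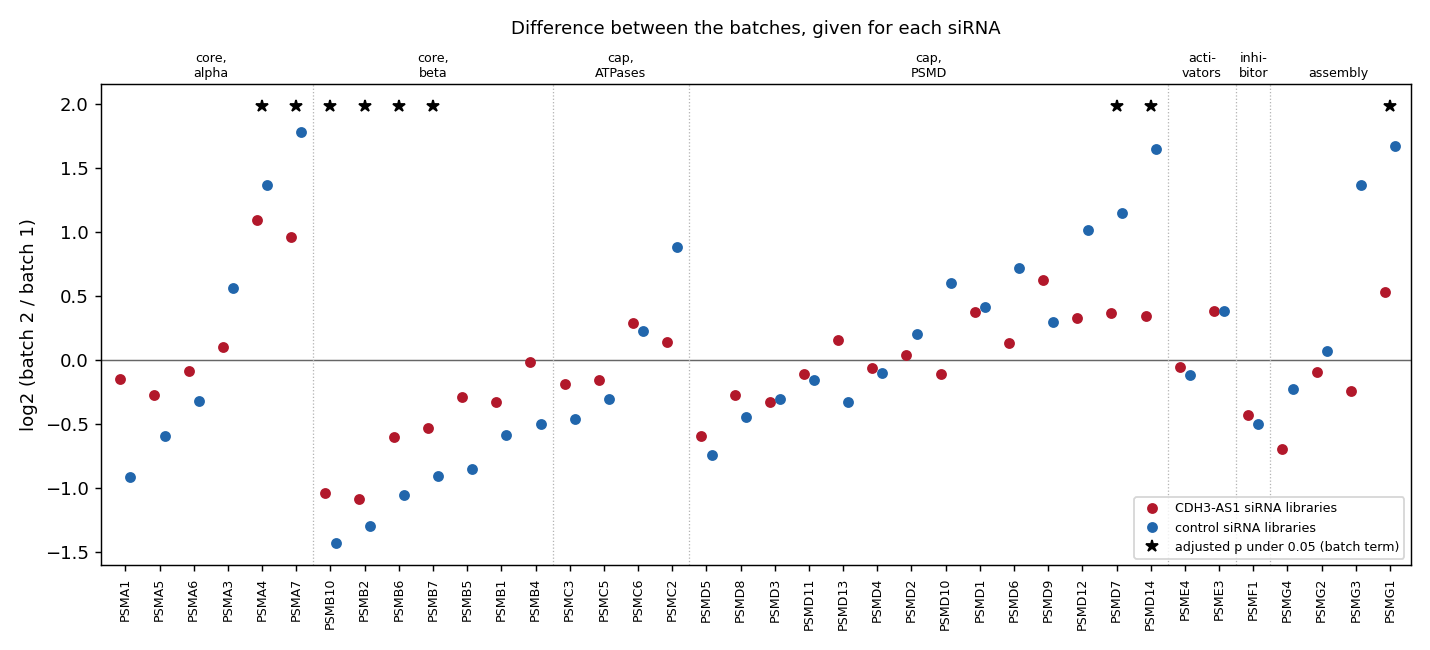
Log2 difference of batch 2 over batch 1 for each proteasome gene, in the CDH3-AS1 siRNA libraries (red) and the control siRNA libraries (blue), by group and in order of the fitted difference. Stars mark the 9 genes with an adjusted p under 0.05. The 7 beta subunits lie below 0 with both siRNAs, and PSMA4 and PSMA7 lie above it.

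Subunits of the complex are needed in fixed proportion, and the files' RPKM, which divide reads by coding length, allow genes to be compared. By group median beta subunits were read most densely, with 507 and 331 RPKM in the CDH3-AS1 siRNA libraries and 578 and 315 RPKM in the control libraries. Alpha subunits had medians of 158 and 160 RPKM, against 158 and 206 RPKM, so the beta median was above the alpha median in 4 of 4 libraries. Single genes of the groups overlapped. The lowest beta mean over libraries was 189 RPKM (PSMB10). In control replicate 2 PSMA7 had 962 RPKM, where the highest beta subunit, PSMB4, had 501 RPKM. The alpha medians are over 6 genes and the ATPase medians over 4, without PSMA2 and PSMC1, which had no coding-sequence reads. RefSeq lists pseudogenes by name for PSMA1, PSMA2, PSMA3, PSMA5, PSMA6 and PSMA7, and of the beta genes for PSMB7 alone. Their part in the difference between alpha and beta subunits was not tested. Averaged over libraries the group medians were 433 RPKM for beta subunits, 191 for alpha subunits, 140 for PSMD genes, 139 for ATPases, 108 for the activators and 63.2 for the PSMG chaperones, beside 25.1 RPKM over all genes read in every library. PSMD and ATPase medians did not differ beyond their spread over libraries. PSMB2, PSMB4, PSMA7, PSMD8 and PSMB5 led the list of means, with 599, 559, 517, 517 and 515 RPKM. PSME4, a long gene of 1843 codons, had 14.2 RPKM and PSMG3 13.7 RPKM.

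These levels are sums over the transcripts of a gene, and a short transcript that shares the reads inflates the sum. PSMB5 had 515 RPKM as a sum and 111 RPKM on its most read transcript, and PSMD2 had 299 and 85.9 RPKM. With the most read transcript the group medians were 324 RPKM for beta and 191 RPKM for alpha subunits, and with all reads over the longest coding length, an alternative added after the data had been seen, the beta median was also 324 RPKM. Under these alternatives the PSMD, ATPase, activator and PSMG medians were lower than as sums, and the order of the groups with beta first and PSMG last held.

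**Figure D4:**
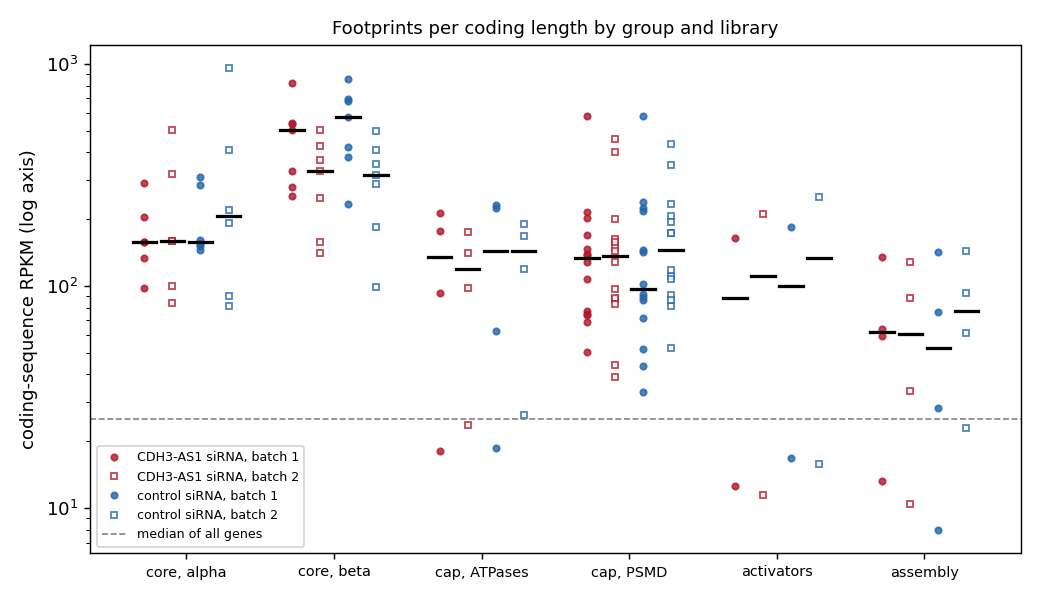
Coding-sequence RPKM (log axis) of each gene by group, in the CDH3-AS1 siRNA libraries (red) and the control siRNA libraries (blue), with filled circles for batch 1 and open squares for batch 2. Black bars are group medians per library and the dashed line is the median of all genes, 25.1 RPKM. The beta medians lie between 315 and 578 RPKM, above the alpha medians in each library.

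Few footprints of core and cap genes lay in 5′ UTRs, and the share was higher for activator and assembly genes. Over the 40 genes the 5′ UTR held 1.57% (95% interval 1.45 to 1.69) and 3.23% (2.96 to 3.51) of 5′ UTR and coding reads with CDH3-AS1 siRNA, against 2.67% (2.41 to 2.95) and 2.28% (2.13 to 2.43) with control siRNA. The share over all genes was 3.90% and 7.21% with CDH3-AS1 siRNA and 6.19% and 5.13% with control siRNA, so both shares were lower with CDH3-AS1 siRNA in batch 1 and higher with it in batch 2. By group the core ran between 1.60% and 3.78% and the cap between 1.19% and 2.46%. Activators had 3.02% and 6.53%, against 7.49% and 3.65% in the controls. Assembly chaperones had 3.57% and 5.60%, against 9.64% and 3.32%. Activators and chaperones lay above the all-gene share in control replicate 1 and below it in the other libraries. Of 38 genes, 28 were below the all-gene share in all 4 libraries, 13 stayed under 1% in every library, and 6 (PSMB4, PSMB7, PSMC6, PSMD5, PSMD8 and PSMD10) had no 5′ UTR read. The all-gene share pools the reads of all genes. How many single genes outside the proteasome lie below or above it was not counted, so these counts have no background.

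PSMA1, PSMD14 and PSMG3 were above the all-gene share in all 4 libraries. PSMD14 had 23.4% (95% interval 20.0 to 27.1) and 30.1% (25.1 to 35.4) with CDH3-AS1 siRNA, against 49.6% (40.5 to 58.7) and 24.1% (21.1 to 27.2) with control siRNA. Control replicate 1, in which PSMD14 had 62 5′ UTR reads and 63 coding reads, stood above the other libraries. PSMG3 had 44.1% and 45.0% with CDH3-AS1 siRNA and 70.0% and 25.0% with control siRNA, on 59, 20, 20 and 68 reads in the same order. PSMD14 and PSMG3 each have 1 listed transcript, and overlap with transcripts of neighbouring genes was not tested. PSMA1 had 15.3% and 28.4%, against 9.96% and 26.2%, higher in batch 2 than in batch 1 with both siRNAs. Its 5′ UTR reads lay on other transcripts than the most read, which had 0 of them in every library.

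**Figure D5:**
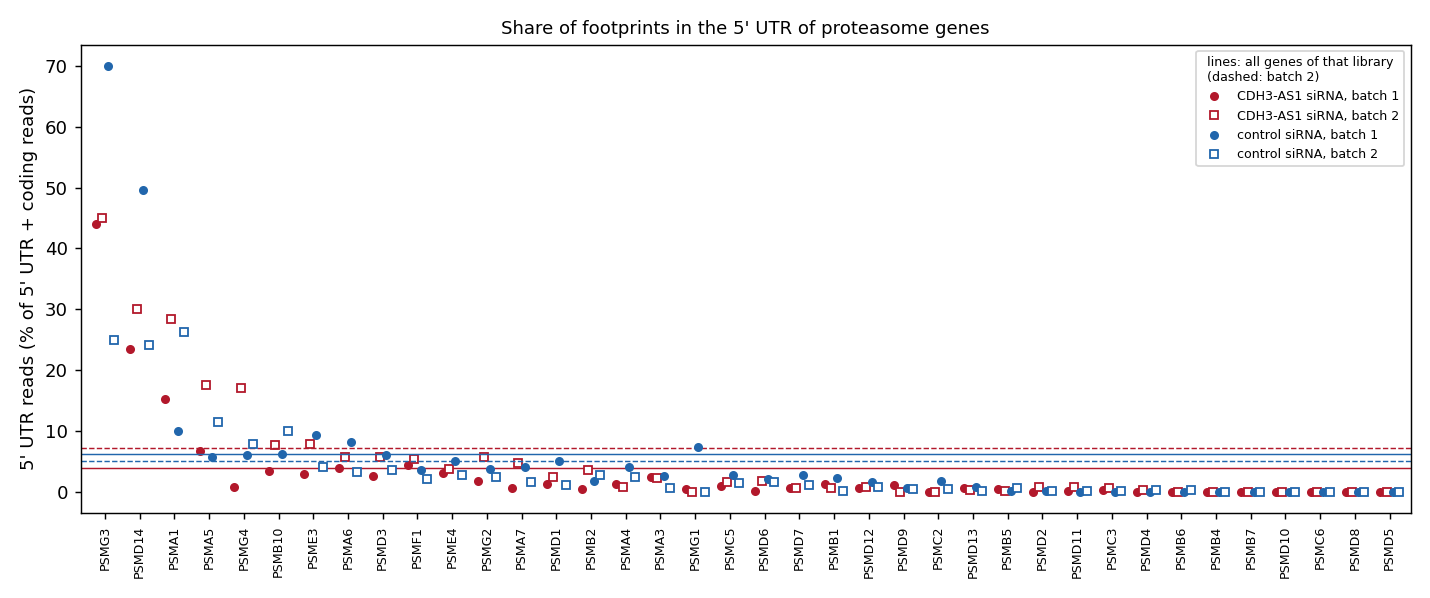
Share of 5′ UTR reads among 5′ UTR and coding reads (%) for each proteasome gene with coding reads, in the CDH3-AS1 siRNA libraries (red) and the control siRNA libraries (blue), with filled circles for batch 1 and open squares for batch 2. Horizontal lines give the share over all genes of each library, 3.90% to 7.21%. PSMG3, PSMD14 and PSMA1 lie above their library's line in all 4 libraries and most genes lie near 0.

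When proteasome activity falls, cells raise the subunit genes through NFE2L1, a transcription factor made at the endoplasmic reticulum, released with the help of the glycanase NGLY1 and the protease DDI2, and bound to DNA with small MAF proteins at antioxidant response elements. None of the 7 genes of this list was called with or without the block, and their median log2 fold change was 0.08. NFE2L1 had 392 and 341 CPM with CDH3-AS1 siRNA, against 379 and 333 CPM with control siRNA (0.08, SE 0.32). MAFF had 74.7 and 62.5 CPM with CDH3-AS1 siRNA, against 37.4 and 48.5 CPM with control siRNA (0.70, SE 0.34, block adjusted p = 0.316 by edgeR). Both libraries lay above both controls, an order that 13.3% of all genes had, by 1.02 in batch 1 and 0.41 in batch 2. DDI2 had 80.8 and 64.8 CPM, against 70.0 and 54.9 CPM (0.27, SE 0.33). NGLY1 had 22.7 and 20.7 CPM, against 19.0 and 30.0 CPM (-0.15, SE 0.40). NFE2L2, which binds the same elements, had 270 and 252 CPM with CDH3-AS1 siRNA and 261 and 313 CPM with control siRNA (-0.10, SE 0.32).

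The core letters of that element, TGACNNNGC, were searched on both strands in the promoters listed for GRCh38.p14. These run from 250 bases before to 50 bases after the start site used for each promoter. For PSMA4, PSMC5 and PSMG1 that site lies inside the RefSeq span of the gene. Of 34 members with a promoter listed, 10 held the motif (29.4%), as did 4384 of 27305 genes in all (16.1%). It was found in 6 of 18 cap genes, 1 of 10 core genes, 1 of 2 activators and 2 of 3 PSMG genes. The windows below are of genes described above, with the motif in capitals and 10 bases on each side, read on the strand that carries the motif. They lie at chr15:78540650-78540678 (plus strand) for PSMA4, chr17:63827654-63827682 (minus) for PSMC5, chr9:120843038-120843066 (minus) for PSMD5, chr17:67366724-67366752 (minus) for PSMD12, chr2:53971009-53971037 (plus) for PSME4 and chr21:39183616-39183644 (minus) for PSMG1.
PSMA4: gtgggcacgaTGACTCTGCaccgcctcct
PSMC5: agggcggcgcTGACACAGCagatccggtc
PSMD5: tggctacagtTGACACGGCcctaacggag
PSMD12: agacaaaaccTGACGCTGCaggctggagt
PSME4: gctctgctggTGACGCTGCagccgccggg
PSMG1: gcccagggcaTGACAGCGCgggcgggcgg
The letters are a description and no evidence of binding. The 10 tested genes with the motif had a median log2 fold change of -0.11 (range -0.54 to 0.34), and the 22 tested genes without it -0.07.

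No partner of the proteasome passed the test. Of 20 listed names 19 were in the tables and all 19 were tested, with 0 called in either direction with or without the block and a median of -0.06. PAAF1, a chaperone of the cap, had 18.9 and 9.20 CPM with CDH3-AS1 siRNA, against 23.9 and 15.8 CPM with control siRNA (-0.41, SE 0.49). UBQLN4, a shuttle that brings ubiquitinated proteins to the cap, had 20.6 and 14.9 CPM, against 11.4 and 16.0 CPM (0.39, SE 0.43). ZFAND2A, a stress-induced partner of the cap, had 7.88 and 3.83 CPM with CDH3-AS1 siRNA and 1.63 and 4.09 CPM with control siRNA, a difference of 2.01 in batch 1, where the control had 3 reads, and -0.04 in batch 2.

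Genes of ubiquitin and of the enzymes that activate it were not called either, 0 of 6, with a median of -0.11. RPS27A, which encodes ubiquitin fused to a ribosomal protein, had 23 and 21 reads with CDH3-AS1 siRNA, against 11 and 55 reads with control siRNA, and like other ribosomal protein genes can share reads with near-identical copies. UBA6, an activating enzyme, had 104 and 86.6 CPM, against 97.2 and 107 CPM (-0.06, SE 0.31).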

How the data were processed

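Per the file headers, the authors deposited for each library a table of transcripts with counts of reads in the 5′ UTR, coding sequence and 3′ UTR, region lengths in bases, and RPKM values for each region. The values show that reads of all regions set the RPKM scale. The submitters' processing notes name hg38 and DESeq2. Aligner, counting tool, annotation, filters and strand: not given in the sources used here. Without strand, overlapping genes cannot be told apart. No RNA-seq was analysed here, so values are ribosome density.

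Coding counts were summed by gene name. Genes passing filterByExpr (minimum count 10, total 15; 10469 genes) were tested with edgeR 4.0.16 (TMM, quasi-likelihood, prior count 2, R 4.3.3), Benjamini-Hochberg over all genes, threshold 0.05, no covariate. Steps were tested on simulated data that had no batch effect and the spread of the blocked fit. Such data do not show what the main fit can detect in these libraries. The labels give same-numbered libraries a shared batch, and their deviations correlated (r = 0.58), so the numbers pair the libraries, and the blocked fit is given beside the main one. edgeR's biological coefficient of variation was 35.9%, and 20.2% in the blocked fit. Alternatives were DESeq2 1.42.0, limma 3.58.1 on log2(RPKM + 1), RLE scaling, no filter, at least 50 reads in each library, the most read transcript, and each library left out. Shares have 95% Clopper-Pearson intervals, and a count of 0 allows up to 3 reads.

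Named genes were PSMB5, PSMB6, PSMB7, PSMB10 and PSMF1, the 2 highest and 2 lowest fold changes of each group and list (all where a group held 4 or fewer), any called gene, and CDH3; some genes that this rule names are not reported here. Members and lists were chosen with earlier results of these data known.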

Additional observations from a re-analysis of the deposited data

How the results depend on the processing

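Between the siRNAs 0 of the tested members were called in the main fit, with the replicate block (median of members -0.12), and under every other alternative that used the 4 libraries. Over all genes the main fit called 0% and the block 1.62%. For the other settings the share over all genes was not counted, so their 0 members have no background. The median of the members was -0.054 with at least 50 reads in each library, and that of the assembly chaperones then 0.15. The median of the activators was -0.23 on the most read transcript. Gene signs near 0 turned in single settings: NGLY1 was 0.0094 and PSMB2 -0.014 on the most read transcript, and PSMA6 was -0.055 and PSMC3 -0.0024 with limma on log2(RPKM + 1). Members called between the batches numbered 4 with no siRNA term and 5 with DESeq2, and 0 to 9 with 1 library left out, a fit that had the batch term alone. Medians of density on the most read transcript and over the longest coding length were 88.1 and 109 RPKM for ATPases, 92.5 and 114 RPKM for PSMD genes, 60.7 and 87.5 RPKM for activators and 37.7 and 52.1 RPKM for PSMG genes. The mean 5′ UTR share of the members was 1.68% on the most read transcript. On the same basis the share over all genes was 2.34% and 4.65% with CDH3-AS1 siRNA and 3.74% and 3.29% with control siRNA. The causes were not tested.

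Leaving out 1 library at a time unbalances the batches. The medians of the log2 fold change between the siRNAs then ran from -0.13 to -0.048 for all members, -0.44 to 0.23 for the core, -0.11 to 0.065 for the cap and -0.38 to -0.21 for the activators. Of the named genes, those that crossed 0 were the following. Alpha subunits ran from -0.38 to 0.16 (PSMA3), -0.079 to 0.26 (PSMA6) and -1.29 to 0.47 (PSMA7). Beta subunits ran from -0.52 to 0.087 (PSMB1), -0.27 to 1.26 (PSMB10), -0.64 to 0.83 (PSMB2), -0.54 to 0.33 (PSMB5), -0.84 to 0.24 (PSMB6) and -0.44 to 0.49 (PSMB7). Cap genes ran from -0.23 to 0.63 (PSMC2), -0.17 to 0.31 (PSMC3), -0.29 to 0.0063 (PSMC6) and -0.066 to 0.93 (PSMD12). The others ran from -0.39 to 0.031 (PSME3), -0.034 to 0.50 (PSMF1), -0.21 to 1.44 (PSMG1), -0.085 to 0.016 (PSMG2), -0.81 to 0.53 (PSMG3), -0.20 to 0.067 (NFE2L2), -0.40 to 0.25 (NGLY1), -1.03 to 0.064 (RPS27A) and -0.18 to 0.049 (UBA6). Those that kept their sign but moved by over 1.5 times ran from -0.62 to -0.0046 (PSMA5), -0.46 to -0.13 (PSMC5), -0.87 to -0.090 (PSMD5), -0.69 to -0.10 (PSMD10), -0.95 to -0.26 (PSMG4), -0.99 to -0.030 (PAAF1), 0.12 to 0.47 (DDI2), 0.17 to 0.69 (UBQLN4) and 0.36 to 1.64 (ZFAND2A). The values nearest 0 of PSMA5, PSMC5 and PSMD5 were those without control replicate 1. At 6 reads in control replicate 1, PSMG3 is limited by depth.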

Other observations

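Of the 19 tested partners of the proteasome, 3 were called higher in batch 2 and 0 lower by the batch term. Over all genes 15.8% were called, so the partners did not stand out. The term was added after the data had been seen, and the 3 are named here because of their values. UCHL5, a deubiquitinase of the cap, had 62.8 and 81.2 CPM in batch 2 (CDH3-AS1 siRNA and control siRNA), against 30.7 and 21.2 CPM in batch 1 (log2 difference 1.46, SE 0.31, adjusted p = 8.6e-05 by edgeR). SEM1, the smallest subunit of the cap, whose name lies outside the PSM pattern, had 100 and 112 CPM in batch 2, against 38.0 and 59.2 CPM in batch 1 (1.18, SE 0.28, adjusted p = 0.00062). TXNL1, a thioredoxin bound to the cap, was higher in batch 2 as well (0.79, SE 0.28, adjusted p = 0.034). These calls were not tried under the alternatives.

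The name matches PSMC3IP and PSME3IP1 were each higher with CDH3-AS1 siRNA in batch 1 and lower in batch 2. PSMC3IP was 0.62 in batch 1 and -0.57 in batch 2, and PSME3IP1 0.47 and -0.68, as log2 differences of CDH3-AS1 siRNA over control siRNA. PSMD2, an organising subunit of the cap, had 337 and 338 CPM with CDH3-AS1 siRNA and 318 and 361 CPM with control siRNA. Its RPKM summed over transcripts was 203 and 403, against 240 and 352, so the scale that weights short transcripts separated the libraries where the read count did not.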
